A study of Mus musculus with 18 samples.

Results

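The genes described here are 40 genes of the cell cycle and of proliferation, from the licensing of DNA replication to the end of mitosis, listed by name and looked up in arrays of mouse pancreatic islets. Of the 40, 38 were measured by a probe set annotated to that gene alone, out of 22180 genes measured in this way. Ccnb1 had no such probe set, and Ccne2 was named only on a probe set shared with Ints8, so neither is used. Only Rrm2 had 2 probe sets, and the brighter was taken. By role, 10 of the 38 act in replication, 17 in mitosis and the passage from G2 to mitosis, 7 in the passage from G1 to S phase, and 4 are CDK inhibitors or chromatin regulators.

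Islets were isolated at 16 weeks of age from male and female C57BL/6 mice and fell into 6 groups of 3 arrays each. Mice without TRAF3 in beta cells carried RIPCre and TRAF3loxP/loxP, mice without TRAF2 in beta cells carried RIPCre and TRAF2loxP/loxP, and floxed littermates served as controls. In RIPCre the rat insulin promoter drives Cre, so that the deletion is aimed at beta cells and the other cells of the islet keep the gene. Each genotype was taken after a high-fat diet (HFD), with 45% of energy as fat for 8 weeks from 8 weeks of age, or on chow throughout. Neither which gene was floxed in the controls nor whether they lacked Cre is stated, and no group carried RIPCre without a floxed gene. Whether the 3 samples of a group came from separate animals is not stated. The p-values below therefore measure the spread between samples. TRAF2 and TRAF3 are adaptor proteins that hold back NF-kB inducing kinase (NIK), and the series asks what lasting NIK activity does in beta cells.

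Cells enter the cycle when D-type cyclins (Ccnd1, Ccnd2, Ccnd3) bind Cdk4 or its relative and free the E2F transcription factors from the retinoblastoma protein. E2F factors then switch on the genes of DNA replication, among them the MCM helicase, while a later wave of genes, among them B-type cyclins, Aurora kinases and spindle proteins, runs in G2 and mitosis. Adult beta cells divide rarely, Ccnd2 and Cdk4 are needed for mouse beta cells to multiply after birth, and Cdkn1b, Cdkn2a and Cdkn2c encode inhibitors of the CDKs.

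All values are the deposited robust multi-array average (RMA) values on the log2 scale, and all differences are log2 differences of group means with the standard error (SE) from limma. A member was called when its p-value, corrected with the Benjamini-Hochberg method over the 22180 genes of a comparison, was under 0.05. Within groups the arrays correlated at 0.960 to 0.993 over all genes. Among the mitotic genes Birc5 was below the array median on all 18 arrays and Bub1 was above it on 1, while the other 15 were above it on 11 to 18 arrays. The members varied more within groups than genes in general, with a median pooled within-group standard deviation (SD) of 0.293, against 0.219 over all genes. The Traf2 probe set, which is not limited to the deleted part of the transcript, read 7.50, 7.23 and 7.22 in chow TRAF2 knockouts, against 7.16, 7.34 and 7.04 in chow controls, and so does not check the labels.

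Several arrays stood apart from their groups. Chow TRAF2 knockout 1 was the highest of all 18 arrays for 12 of the 17 mitotic genes and for 16 of the 38 members, and HFD TRAF3 knockout 3 was the lowest for 15 of the 38. HFD control 3 was the lowest of its group for 29 of the 38. T and B cell markers were high on chow TRAF2 knockout 1 and on HFD TRAF3 knockout 2: the summed linear level of 12 lymphocyte markers was 3710 and 3399 on these arrays, against 319 to 2063 on the others. Cd3e, a chain of the T cell receptor complex, read 8.91 and 8.85 there, and Cd79a, a chain of the B cell receptor, 8.90 and 8.89. By Xist and Y-linked genes, each chow group held 1 female (replicate 1) and 2 male samples, each HFD knockout group 2 female and 1 male, and the HFD controls were 3 females.

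**Figure D1:**
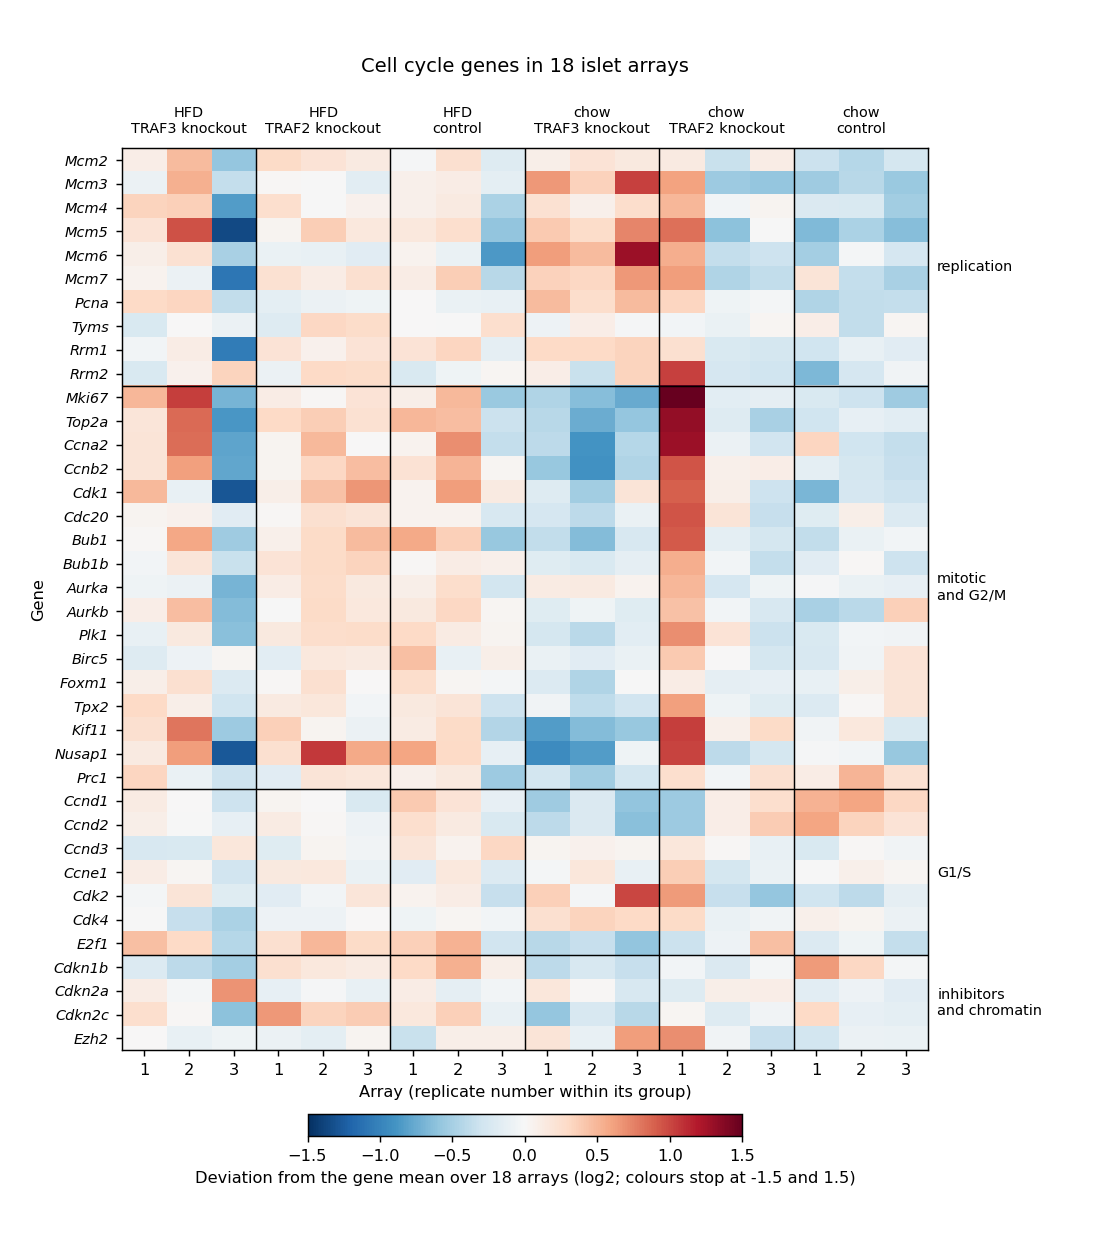
Each row is 1 of the 38 measured genes, ordered by role, and each column 1 of the 18 arrays. The colour gives the deviation of the array from the mean of the gene over all arrays, on the log2 scale. Chow TRAF2 knockout 1 is red over most mitotic genes, HFD TRAF3 knockout 3 is blue over most members, and the 3 chow TRAF3 knockout arrays are red over the replication genes and blue over most mitotic genes.

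Both waves of cell cycle genes have known promoter elements, shown here because the 2 waves are described apart below. RefSeq windows of 250 bases before the transcription start (GRCm38.p6) were at hand for 31 of the measured genes, 36 windows in all. They were searched on both strands for an E2F site (TTTCCCGC, TTTGGCGC, TTTCGCGC or TTTGCCGC), for the cell cycle genes homology region, CHR (TTTGAA or TTCGAA), and for the CCAAT box. An E2F match was found in 3 of 10 windows of replication genes and in 1 of 14 of mitotic genes, against 1.86% of the 32851 windows of all genes. A CHR match was found in 2 of 10 and 8 of 14, against 17.1% of all windows, and CCAAT in 9 of 10 and 12 of 14, against 33.8%. A match is a description of letters and not a site shown to be bound.

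Below are the windows of the 3 replication genes that rose in TRAF3 knockouts on chow, of the mitotic genes Prc1 and Ccnb2, and of Cdkn1b, each 5′ to 3′ on the strand of its gene and ending just before the start. Capitals mark the matches. Mcm6 (chr1:128359706-128359955, minus strand) has 3 E2F matches, 2 of them overlapping, and 2 CCAAT boxes read on the opposite strand as ATTGG.
Mcm6: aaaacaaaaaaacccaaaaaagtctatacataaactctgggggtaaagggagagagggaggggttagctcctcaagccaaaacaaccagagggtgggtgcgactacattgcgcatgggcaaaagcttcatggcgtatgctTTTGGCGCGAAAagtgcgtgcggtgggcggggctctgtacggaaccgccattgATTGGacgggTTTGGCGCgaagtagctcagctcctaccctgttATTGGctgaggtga
Mcm3 (chr1:20820313-20820562, minus strand) has 3 CCAAT boxes, and Pcna (chr2:132253181-132253430, minus strand) has 1.
Mcm3: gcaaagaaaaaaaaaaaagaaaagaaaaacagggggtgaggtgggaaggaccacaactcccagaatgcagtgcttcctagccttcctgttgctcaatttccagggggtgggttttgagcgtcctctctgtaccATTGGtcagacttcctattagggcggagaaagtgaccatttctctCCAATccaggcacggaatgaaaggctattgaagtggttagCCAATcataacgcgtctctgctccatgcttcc
Pcna: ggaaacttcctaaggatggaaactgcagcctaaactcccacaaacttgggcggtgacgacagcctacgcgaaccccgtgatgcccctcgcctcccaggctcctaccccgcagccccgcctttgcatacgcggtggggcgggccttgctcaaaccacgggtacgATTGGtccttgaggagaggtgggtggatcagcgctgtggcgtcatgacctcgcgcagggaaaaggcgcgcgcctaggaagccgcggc
Prc1 (the second of 2 starts, chr7:80294226-80294475, plus strand) and Ccnb2 (chr9:70421555-70421804, minus strand) each have 1 CHR match, with 1 and 3 CCAAT boxes.
Prc1: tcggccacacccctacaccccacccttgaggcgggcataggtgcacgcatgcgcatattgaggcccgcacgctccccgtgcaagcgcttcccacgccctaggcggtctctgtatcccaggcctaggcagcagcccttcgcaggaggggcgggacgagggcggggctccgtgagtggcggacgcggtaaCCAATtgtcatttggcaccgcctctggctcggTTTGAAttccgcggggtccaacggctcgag
Ccnb2: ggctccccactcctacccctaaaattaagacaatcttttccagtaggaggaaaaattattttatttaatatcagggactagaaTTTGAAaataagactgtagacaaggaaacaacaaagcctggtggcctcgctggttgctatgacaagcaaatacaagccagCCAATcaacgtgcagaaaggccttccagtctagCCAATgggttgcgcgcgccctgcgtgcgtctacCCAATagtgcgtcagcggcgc
Cdkn1b (chr6:134920151-134920400, plus strand) has 2 CCAAT boxes.
Cdkn1b: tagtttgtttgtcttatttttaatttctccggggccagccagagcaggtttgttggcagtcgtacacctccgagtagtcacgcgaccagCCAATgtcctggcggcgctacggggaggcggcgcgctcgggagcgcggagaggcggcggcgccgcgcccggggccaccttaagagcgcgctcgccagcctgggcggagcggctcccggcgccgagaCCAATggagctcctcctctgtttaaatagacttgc

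On chow, 3 of the 10 replication genes rose in TRAF3 knockout islets relative to control islets, and the other 7 did not pass the test. Those that rose were Pcna (chromosome 2, 132249286 to 132253180 on GRCm38), the sliding clamp of DNA polymerase, and Mcm3 and Mcm6, subunits of the replicative helicase (both on chromosome 1, 20802966 to 20820312 and 128331575 to 128359705). Over all 38 members, 3 rose and 4 fell in this comparison (18.4%), against 11% of all genes called in either direction, 6.33% upward and 4.69% downward. All 10 replication genes had positive differences, with a median of 0.58 and a range of 0.08 to 1.18, beside a median close to 0 over all genes. In bulk islets, a change in the number of cells of a type and a change in RNA per cell cannot be told apart.

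Pcna read 10.58, 10.36 and 10.57 in chow TRAF3 knockouts, against 9.64, 9.73 and 9.74 in chow controls. Every knockout array lay above every control array, and the difference of 0.80 ± 0.16 (SE, n = 3 each; 1.74-fold) had an adjusted p of 0.00584 with limma. It passed without any single array, at 0.76 to 0.87.

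Mcm3 read 5.84, 5.53 and 6.22 in chow TRAF3 knockouts, against 4.65, 4.78 and 4.63 in chow controls. There was no overlap, with a difference of 1.18 ± 0.28 (SE; 2.26-fold; limma adjusted p = 0.0133). The chow control values lay below the medians of their arrays (4.92, 4.81 and 4.89), so the fold starts from low signal. Without chow TRAF3 knockout 3, the highest of all arrays for Mcm3, the difference was 1.00 with an adjusted p of 0.0835.

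Mcm6 read 7.39, 7.23 and 8.04 in chow TRAF3 knockouts, against 6.25, 6.74 and 6.51 in chow controls, again without overlap. The difference was 1.06 ± 0.29 (SE; 2.08-fold; limma adjusted p = 0.0264). This call was lost without any of 4 arrays: chow TRAF3 knockout 1 (1.14, adjusted p = 0.0575), chow TRAF3 knockout 3 (0.81, 0.153), chow control 1 (0.93, 0.113) and chow control 3 (1.06, 0.0520).

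Mcm5, another helicase subunit, differed by as much as Mcm6 but varied more. It read 7.27, 7.16 and 7.62 in chow TRAF3 knockouts, against 6.22, 6.40 and 6.24 in chow controls, a difference of 1.06 ± 0.44 (SE; limma adjusted p = 0.144). Those 3 arrays on each side did not overlap, but its values spread widely in other groups, at 7.09, 7.83 and 5.53 in HFD TRAF3 knockouts and 7.70, 6.27 and 6.87 in chow TRAF2 knockouts. The other MCM subunits gave 0.48 (Mcm2), 0.51 (Mcm4) and 0.65 (Mcm7), and the ribonucleotide reductase subunits 0.50 (Rrm1) and 0.36 (Rrm2), none passing the test. Tyms, which makes the thymidine nucleotide, gave 0.08.

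Under HFD no replication gene passed between TRAF3 knockouts and their controls. Their median difference was 0.01, with 5 of 10 positive, a range of -0.46 to 0.24 and none called. These values moved with single arrays: without HFD TRAF3 knockout 3 the median was 0.25 with 7 of 10 positive, without HFD TRAF3 knockout 2 it was -0.24 with 3 positive, and without HFD control 3 it was -0.11 with 2 positive. Over all members, 1 of the 38 members was called (2.63%), against 2.52% of all genes in either direction and 0.848% downward. Pcna read 10.39, 10.42 and 9.74 in HFD TRAF3 knockouts, against 10.11, 9.995 and 9.98 in HFD controls, and the groups overlapped, with knockout 3 low. The difference was 0.15, and 0.38 without that array. Mcm3 was likewise mixed, at 5.10, 5.72 and 4.83 in HFD TRAF3 knockouts, against 5.26, 5.30 and 5.04 in HFD controls. Mcm6 read 6.85, 6.99 and 6.28 in HFD TRAF3 knockouts, against 6.81, 6.67 and 5.90 in HFD controls.

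The test of that difference itself, the TRAF3 knockout by diet interaction, called no member, against 5.8% of all genes, and 9 members had an unadjusted p under 0.05, against 21.3% of all genes. All 10 replication genes had negative interactions, with a median of -0.73 and a range of -1.16 to -0.22. Without HFD TRAF3 knockout 3 all 10 were still negative, but the median was -0.42. The smallest p-values belonged to Mcm3 (-1.16 ± 0.39, limma adjusted p = 0.0927), Rrm1 (-0.97 ± 0.33, 0.0927) and Cdk4 (-0.53 ± 0.18, 0.0987). When both lymphocyte-rich arrays were left out, an alternative that removes HFD TRAF3 knockout 2, 3 members were called: Mcm3 (-1.41), Rrm1 (-1.19) and Pcna (-0.76). The interaction is computed from the same knockout and control arrays as both diet-specific comparisons, so its values do not support theirs independently.

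**Figure D2:**
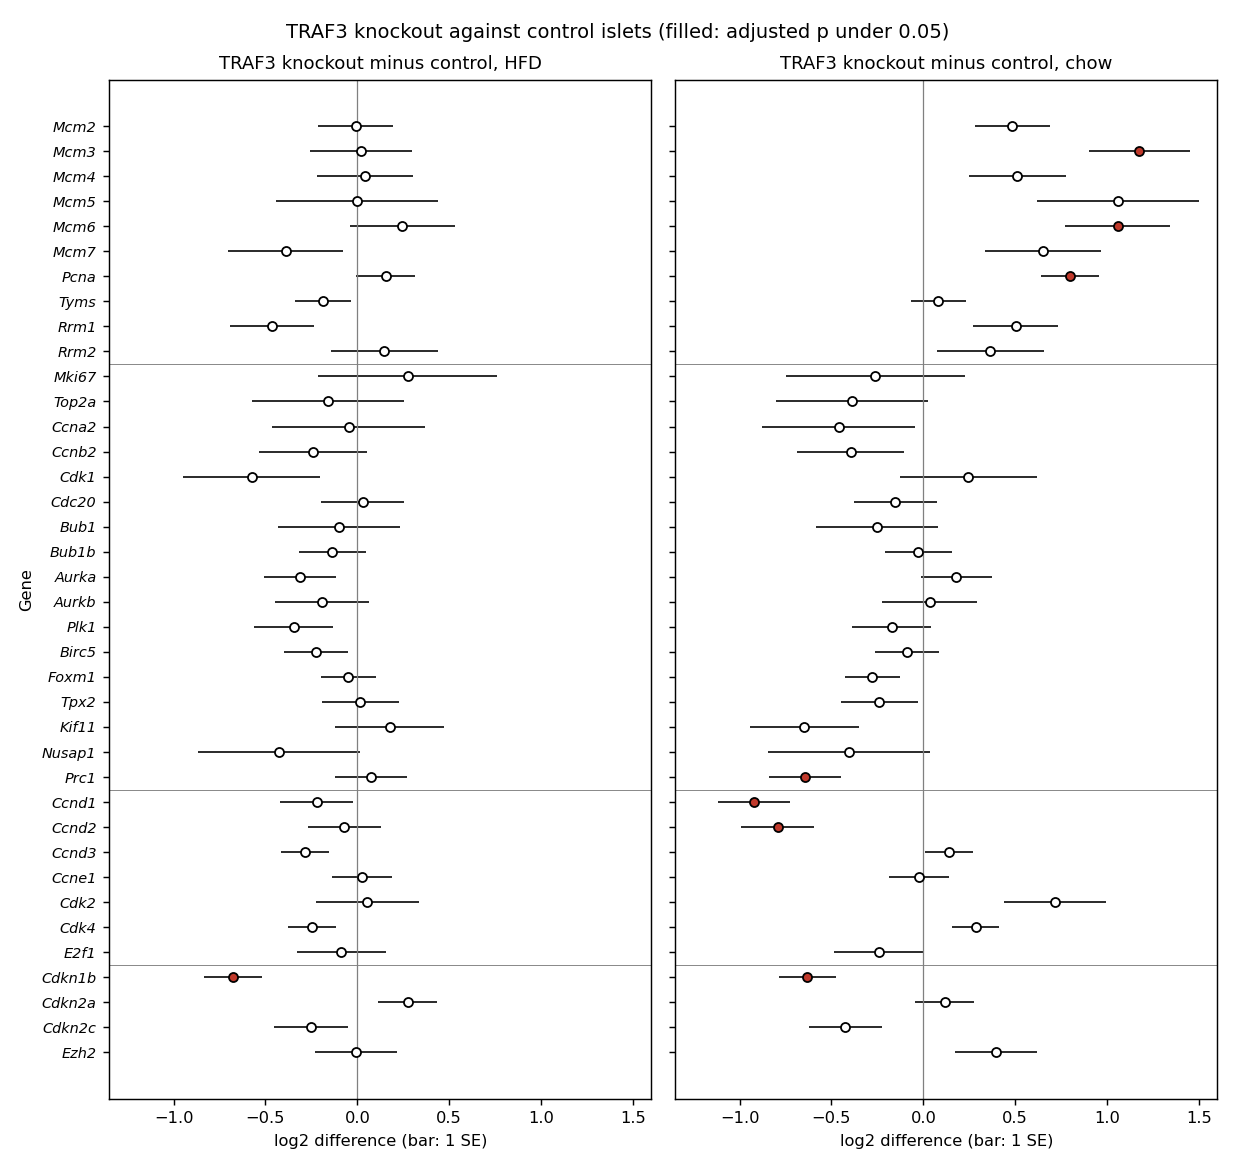
Each point is the log2 difference of 1 gene between TRAF3 knockout and control islets, on HFD (left) and on chow (right), with a bar of 1 SE. Filled points passed an adjusted p of 0.05. On chow the 10 replication genes at the top all lie right of 0 and most mitotic genes left of it. On HFD only Cdkn1b is filled.

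TRAF2 knockout islets had no called member on either diet, against 0.298% of all genes on chow and 0.252% on HFD. On chow 4 members had an unadjusted p under 0.05, against 6.44% of all genes. Pcna came closest, at 10.43, 10.03 and 10.07 in chow TRAF2 knockouts, against 9.64, 9.73 and 9.74 in chow controls. The groups did not overlap, but the difference of 0.47 ± 0.16 (SE) had a limma adjusted p of 0.480. Ccnd1 (-0.54, adjusted p = 0.576) and Cdkn1b (-0.40, 0.643) followed. On HFD the smallest p-values were those of Ccnd3 (-0.25, adjusted p = 0.928), Cdkn2c (0.32) and Bub1b (0.20), and no member had an unadjusted p under 0.05, against 5.71% of all genes.

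Replication and mitotic genes of chow TRAF2 knockouts were high on a single array. Their median differences from chow controls were 0.32 and 0.33, with 10 of 10 and 15 of 17 positive. The replication score, the mean deviation of the 10 genes from their means over all arrays, was 0.48, -0.30 and -0.17 in chow TRAF2 knockouts, against -0.34, -0.30 and -0.33 in chow controls, and in chow TRAF3 knockouts it was 0.31, 0.20 and 0.52. Without chow TRAF2 knockout 1 the medians were 0.05 and -0.05, with 6 of 10 and 7 of 17 positive, and over all 38 members the number of positive differences was 16 in place of 31. Chow TRAF2 knockout 1 thus reached the level of the TRAF3 knockouts while the other two lay near the controls. The TRAF2 knockout by diet interaction called no member, against 0% of all genes by limma, where 628 genes (2.83%) and 1 member, Pcna (-0.50, adjusted p = 1.00), had an unadjusted p under 0.05. Ccnd3 (-0.36) and Ccnb2 (-0.61) came next.

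**Figure D3:**
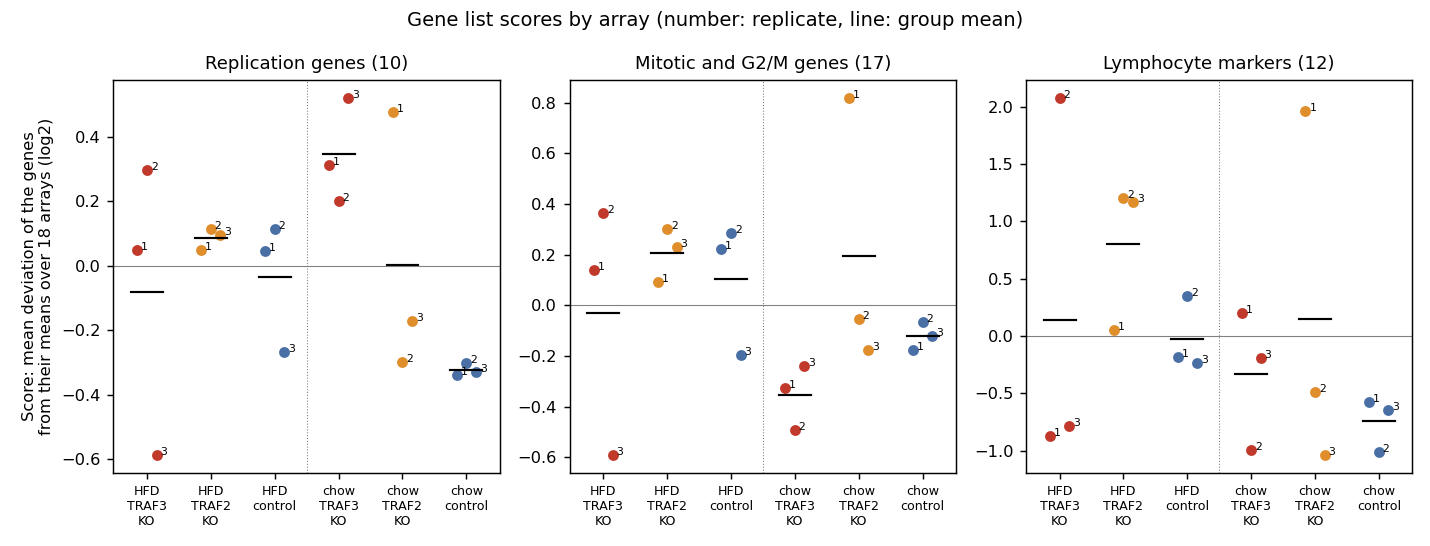
Each point is 1 array, numbered by replicate, and each line a group mean. The score is the mean deviation of the genes from their means over 18 arrays, on the log2 scale, for replication genes (left), mitotic genes (middle) and lymphocyte markers (right). The 3 chow TRAF3 knockouts lie above the chow controls in the left panel and below them in the middle one, and chow TRAF2 knockout 1 is high in all 3 panels.

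Mitotic genes did not follow the replication genes in TRAF3 knockouts on chow. Their median difference from chow controls was -0.25, with 3 of 17 positive, and Prc1, which bundles microtubules of the central spindle, was the 1 gene called. Prc1 (chromosome 7, 80294445 to 80316259) read 5.05, 4.81 and 5.05 in chow TRAF3 knockouts, against 5.45, 5.83 and 5.56 in chow controls. The groups did not overlap and differed by -0.64 ± 0.20 (SE; limma adjusted p = 0.0466). It was lost without any of 13 of the 18 arrays, and values without 1 array ran from -0.73 to -0.53, so the call rests on a p-value close to the threshold.

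Mki67, whose protein Ki-67 marks dividing cells, read 5.34, 5.16 and 5.04 in chow TRAF3 knockouts, 7.83, 5.64 and 5.66 in chow TRAF2 knockouts and 5.56, 5.49 and 5.27 in chow controls. The TRAF3 knockouts overlapped with the controls by 1 array (-0.26 ± 0.49, limma adjusted p = 0.831), and a single TRAF2 knockout array stood far above the rest. On HFD it read 6.30, 6.83 and 5.10 in TRAF3 knockouts, 5.91, 5.81 and 6.00 in TRAF2 knockouts and 5.89, 6.28 and 5.24 in controls, with full overlap.

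Top2a, the topoisomerase that untangles chromosomes before mitosis, was likewise highest on chow TRAF2 knockout 1. It read 4.72, 4.39 and 4.56 in chow TRAF3 knockouts, 6.46, 4.95 and 4.66 in chow TRAF2 knockouts and 4.84, 5.01 and 4.98 in chow controls. The TRAF3 knockouts lay below their array medians and below the controls without overlap. The difference of -0.39 ± 0.41 (SE) had a limma adjusted p of 0.661. On HFD it read 5.32, 5.99 and 4.27 in TRAF3 knockouts, 5.43, 5.51 and 5.37 in TRAF2 knockouts and 5.64, 5.60 and 4.82 in controls.

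All mitotic genes but Prc1 gave differences between -0.65 (Kif11, a spindle motor) and 0.24 (Cdk1, the mitotic kinase) in TRAF3 knockouts on chow, and between -0.58 (Cdk1) and 0.27 (Mki67) on HFD, none of them called. In that span on chow lay the cyclins Ccna2 (-0.46) and Ccnb2 (-0.40), the Aurora kinases Aurka (0.18) and Aurkb (0.04), the checkpoint genes Bub1 (-0.25) and Bub1b (-0.03), Plk1 (-0.17), Cdc20 (-0.15) and the transcription factor Foxm1 (-0.28). Nusap1 (-0.40) and Tpx2 (-0.24), which shape the spindle, and Birc5 (-0.09), the survivin gene, lay there too.

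The mitotic score moved with the lymphocyte markers on 2 arrays. Chow TRAF2 knockouts scored 0.82, -0.05 and -0.18 on mitotic genes and 1.97, -0.49 and -1.04 on lymphocyte markers, and HFD TRAF3 knockouts 0.14, 0.36 and -0.59 on mitotic genes and -0.87, 2.08 and -0.79 on lymphocyte markers. HFD TRAF3 knockout 3 had the lowest mitotic score of all 18 arrays, with a lymphocyte score above that of knockout 1. Summed myeloid markers were 1674 on this array, against 3924 and 4387 on knockouts 1 and 2, and endothelial markers 2548, against 4455 and 5232. Markers of stellate cells, fibroblasts and pericytes summed to 1521, against 3813 and 3743. Its ductal (12791) and acinar (66390) sums were the highest of its group. HFD control 3 was the lowest of its group for the myeloid (3876), endothelial (2706) and stellate cell (3006) sums. The part of lymphocytes and of these other cells in the mitotic values was not tested.

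Set against TRAF2 knockouts, TRAF3 knockouts had lower values of all 17 mitotic genes in the mean of both diets, with a median difference of -0.43 and a range of -0.76 to -0.11, but no member was called, against 0.275% of all genes. Without chow TRAF2 knockout 1 all 17 were still lower, with a median of -0.24, and Mki67 and Top2a differed by -0.15 and -0.25, against -0.51 and -0.52 with it. Without HFD TRAF3 knockout 3 the median was -0.27. Either omission shrank the median, and the arrays were not left out together, so lower values of all 17 without both are not shown. On HFD, Mki67 read 6.30 and 6.83 in TRAF3 knockouts 1 and 2, above the 5.91, 5.81 and 6.00 of TRAF2 knockouts. At an unadjusted p under 0.05 there were 12 members, against 12.2% of all genes, the smallest p being those of Cdkn1b (-0.38, limma adjusted p = 0.177), Cdkn2c (-0.46) and Ccnb2 (-0.64). On chow alone, against 2.01% of all genes called, no member was called either, and Kif11 came closest. Kif11 read 4.38, 4.57 and 4.65 in chow TRAF3 knockouts, each below its array median, against 6.26, 5.30 and 5.52 in chow TRAF2 knockouts. These arrays did not overlap and differed by -1.16 ± 0.30 (SE; limma adjusted p = 0.0579). Ccnb2 (-1.02, 0.0818) and Mcm3 (0.85, 0.121) followed. Without both lymphocyte-rich arrays Kif11 was called at -0.87, with Mcm3 (1.24), Mcm6 (1.13), Cdk2 (0.90) and Ccnd2 (-0.65). On HFD no member was called, against 1.05% of all genes, with Cdkn1b (-0.54, adjusted p = 0.135), Cdkn2c (-0.57) and Aurka (-0.46) closest.

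Of the D-type cyclins, Ccnd1 and Ccnd2 fell in TRAF3 knockouts on chow and Ccnd3 did not pass. Ccnd1 (chromosome 7, 144929931 to 144939831) read 9.21, 9.52 and 9.15 in chow TRAF3 knockouts, against 10.26, 10.33 and 10.06 in chow controls. There was no overlap, and the difference of -0.92 ± 0.20 (SE; 1.89-fold lower) had a limma adjusted p of 0.00837. Without chow TRAF3 knockout 3 it was -0.85, with an adjusted p of 0.0509. On HFD the Ccnd1 values overlapped. They were 9.86, 9.74 and 9.43 in TRAF3 knockouts, 9.78, 9.75 and 9.52 in TRAF2 knockouts and 10.14, 9.95 and 9.61 in controls.

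Ccnd2, the main D-type cyclin of mouse beta cells (chromosome 6, 127125162 to 127152188), read 11.16, 11.33 and 10.93 in chow TRAF3 knockouts, against 12.15, 11.88 and 11.76 in chow controls. The groups did not overlap and differed by -0.79 ± 0.20 (SE; 1.73-fold lower; limma adjusted p = 0.0184). The call was lost without chow TRAF3 knockout 1 (-0.80), without chow TRAF3 knockout 3 (-0.69) or without chow control 1 (-0.68), and with a ductal marker score in the fit it was -0.48 (0.203). On HFD the Ccnd2 values overlapped, at 11.64, 11.54 and 11.44 in TRAF3 knockouts, 11.68, 11.57 and 11.47 in TRAF2 knockouts and 11.81, 11.70 and 11.33 in controls.

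Chow TRAF2 knockout 1 again stood with the TRAF3 knockouts: its Ccnd1 was 9.20, against 9.84 and 9.99 in the other chow TRAF2 knockouts, and its Ccnd2 was 11.01, against 11.65 and 11.93. Its beta cell markers summed to 15310, against 23604 and 26506 in the others and 12999 to 17387 in chow TRAF3 knockouts. Its myeloid markers summed to 4891, against 2050 and 2016 in the others. The part of cell types in these cyclin values was not tested. With both diets and both knockouts averaged, Ccnd1 fell by 0.47 on the log2 scale (SE 0.12, limma adjusted p = 0.0464), and this call was lost without any of 11 of the 18 arrays, at -0.55 to -0.41. On HFD alone Ccnd1 was called in neither knockout, and both knockouts overlapped with the controls. It was 1 of 2 members called in that average (5.26%), both downward, against 2.8% of all genes in either direction and 0.96% downward.

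Ccnd3 read 8.06, 8.09 and 8.06 in chow TRAF3 knockouts, 8.18, 8.04 and 7.90 in chow TRAF2 knockouts and 7.79, 8.03 and 7.96 in chow controls. On HFD it read 7.77, 7.79 and 8.19 in TRAF3 knockouts, 7.83, 8.06 and 7.97 in TRAF2 knockouts and 8.20, 8.07 and 8.32 in controls. The TRAF3 knockouts differed from controls by 0.14 on chow and by -0.28 on HFD, and neither passed (adjusted p = 0.602 and 0.311, limma).

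Cdk4, the kinase partner of the D-type cyclins (chromosome 10, 127063535 to 127067288), was the 1 member called between diets, in TRAF3 knockouts. It read 10.49, 10.14 and 10.01 in HFD TRAF3 knockouts, against 10.73, 10.82 and 10.78 in chow TRAF3 knockouts. The groups did not overlap and differed by -0.57 ± 0.13 (SE; limma adjusted p = 0.0144). This was 1 of 38 members (2.63%), against 8.67% of all genes called and 6.01% downward. Without HFD TRAF3 knockout 2 the difference was -0.53 (adjusted p = 0.0598), and without chow TRAF3 knockout 3 it was -0.56 (0.0595). Cdk4 lay within 10.38 to 10.77 on all arrays of the other 4 groups.

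Of the other G1 to S genes, Cdk2, the partner of cyclin E, gave 0.72 ± 0.28 (SE) in TRAF3 knockouts on chow, with chow TRAF3 knockout 3 at 7.23 the highest of all arrays (limma adjusted p = 0.119). Cyclin E1, Ccne1, gave -0.02 and the transcription factor E2f1 gave -0.24.

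**Figure D4:**
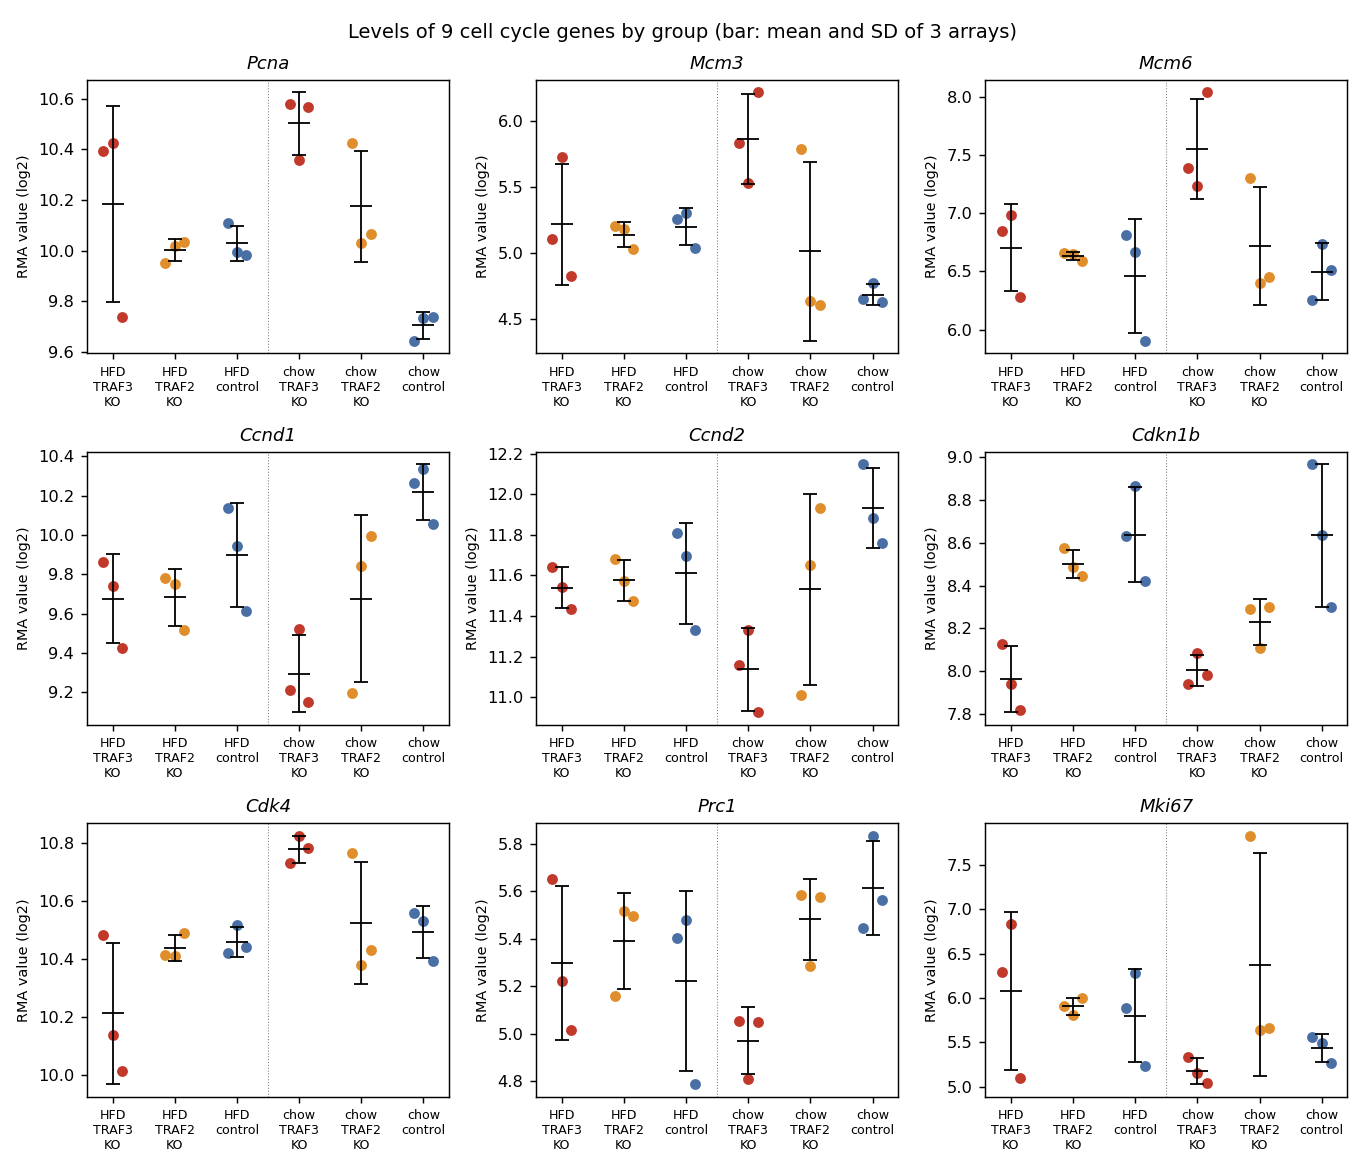
Each point is the RMA value (log2) of 1 array, with the mean and SD of the 3 arrays of each group, for 9 genes on axes of their own. Pcna, Mcm3 and Mcm6 are highest in chow TRAF3 knockouts, Ccnd1, Ccnd2 and Prc1 are low there, and Cdkn1b is low in TRAF3 knockouts on both diets. Mki67 is set apart by 1 chow TRAF2 knockout array at 7.83.

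Cdkn1b, a CDK inhibitor of the Cip/Kip family that holds cells in G1, was the member called in most comparisons, and fell in TRAF3 knockouts on both diets. On chow Cdkn1b (chromosome 6, 134920401 to 134925525) read 7.94, 8.09 and 7.98 in TRAF3 knockouts, against 8.97, 8.64 and 8.30 in controls. On HFD it read 8.13, 7.94 and 7.82 in TRAF3 knockouts, against 8.63, 8.86 and 8.42 in controls. Neither pair of groups overlapped, with differences of -0.63 ± 0.16 (SE; limma adjusted p = 0.0171) on chow and -0.68 ± 0.16 (0.0290) on HFD. The HFD controls were all female and 1 of the 3 HFD TRAF3 knockouts was male, and with a sex score in the fit the HFD difference was -0.67 and still passed.

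Some single arrays decided these calls. The chow call was lost without chow TRAF3 knockout 1 (-0.60), chow TRAF3 knockout 3 (-0.62) or chow control 1 (-0.47). The HFD call was lost without HFD TRAF3 knockout 2 (-0.67), HFD TRAF3 knockout 3 (-0.61), HFD control 1 (-0.68) or HFD control 2 (-0.56). It was also lost with every probe set in the test (adjusted p = 0.0524), with only the compared arrays in the fit (0.195) and without both lymphocyte-rich arrays (-0.67, 0.0881), all by limma. The chow call was lost when other groups left the fit (0.0678), and the ductal score gave -0.39 (0.187). In TRAF2 knockouts Cdkn1b read 8.57, 8.49 and 8.45 on HFD and 8.29, 8.11 and 8.30 on chow, between the TRAF3 knockouts and most controls. The average over diets and knockouts was -0.46 ± 0.10 (SE; limma adjusted p = 0.0147), and without HFD control 2 it was -0.41 (0.0514).

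The INK4 genes and Ezh2 had no call. Cdkn2a, whose probe set covers the overlapping transcripts of INK4A and ARF and cannot separate them, read 5.61, 5.48 and 6.18 in HFD TRAF3 knockouts, 5.38, 5.49 and 5.40 in HFD TRAF2 knockouts and 5.61, 5.37 and 5.47 in HFD controls. Its highest value of all 18 arrays was that of HFD TRAF3 knockout 3, the array that was lowest for most mitotic genes of its group. On chow it read 5.67, 5.53 and 5.26 in TRAF3 knockouts, 5.31, 5.60 and 5.61 in TRAF2 knockouts and 5.35, 5.43 and 5.34 in controls. Cdkn2c gave -0.43 on chow and -0.25 on HFD in TRAF3 knockouts.

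Ezh2, the Polycomb methyltransferase that silences the Cdkn2a locus in young beta cells, read 7.27, 6.96 and 7.70 in chow TRAF3 knockouts, 7.77, 7.02 and 6.73 in chow TRAF2 knockouts and 6.80, 6.98 and 6.97 in chow controls. On HFD it read 7.08, 6.96 and 7.01 in TRAF3 knockouts, 6.98, 6.93 and 7.11 in TRAF2 knockouts and 6.74, 7.16 and 7.16 in controls. The groups overlapped on both diets.

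Other cell types moved with the chow TRAF3 knockout group, and their part in the member values was not tested beyond a ductal score in the fit. The summed linear level of 8 ductal markers was 9194 to 15226 in chow TRAF3 knockouts, against 2295 to 11177 in chow controls, and 1 of the 8 rose. Beta cell markers summed to 12999 to 17387 in chow TRAF3 knockouts, against 22942 to 31613 in chow controls, and 7 of 9 fell. Of 13 markers of macrophages and other myeloid cells, 3 rose. With that score in the fit 1 of the 7 members called on chow remained, Pcna, at 0.84 with a limma adjusted p of 0.0341. Mcm3 then gave 1.15 (0.0782), Mcm6 0.96 (0.150) and Prc1 -0.63 (0.172), close to their values without the score. Ccnd1 gave -0.68 (0.0961), Ccnd2 -0.48 and Cdkn1b -0.39, each smaller in size than without it.

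HFD against chow gave no called member in controls (0.884% of all genes called), in TRAF2 knockouts (1.96%) or in the mean of the 3 genotypes (9.72%). With limma, 0, 1 and 3 members had an unadjusted p under 0.05 in these comparisons, against 15.9%, 14.5% and 24.4% of all genes. In controls 32 of 38 differences were positive, with a median of 0.23, and the smallest p-values were those of Ccnd3 (0.27, adjusted p = 0.323), Pcna (0.32) and Prc1 (-0.39). Mcm3 did not overlap between diets in controls, at 5.26, 5.30 and 5.04 on HFD, against 4.65, 4.78 and 4.63 on chow, a difference of 0.51 ± 0.28 (SE; limma adjusted p = 0.385). In TRAF2 knockouts Cdkn2c (0.52, adjusted p = 0.214), Cdkn1b (0.27) and E2f1 (0.32) came first. In the mean of genotypes these were Cdk4 (-0.23 ± 0.07, 0.0646), E2f1 (0.43 ± 0.14, 0.0659) and Cdkn2c (0.32 ± 0.12, 0.0982). Every HFD group held more females than the chow group of its genotype, and the HFD controls held no male. Diet and sex were therefore partly confounded in all comparisons of diets.

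Genes of the same pathway outside the 38 were read from 3 further lists. Of 37 other replication genes, 28 had positive differences in TRAF3 knockouts on chow (median 0.28) and 3 rose (8.11%, against 11% of all genes called in either direction and 6.33% upward). They were Cdt1, which loads the MCM helicase (0.98, limma adjusted p = 0.0171), Chaf1b, a chromatin assembly factor (1.08, 0.0114), and Gins4, of the helicase complex (0.50, 0.0414). Cdt1 read 6.88, 6.56 and 7.22 in chow TRAF3 knockouts, against 5.59, 6.21 and 5.92 in chow controls. Of 48 other mitotic genes, 18 had positive differences and 2 were called (4.17%): Pttg1, the securin that guards sister chromatids, rose (0.80, 0.00244), and Smc4, a condensin subunit, fell (-0.96, 0.0312).

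Some of these calls also depended on single arrays. Cdt1 was lost without chow TRAF3 knockout 1 (0.98), chow TRAF3 knockout 3 (0.82) or chow control 1 (0.82), and Chaf1b without chow TRAF3 knockout 3 (0.90). Smc4 was lost without chow TRAF3 knockout 1 (-0.91), chow TRAF3 knockout 3 (-0.93), chow control 1 (-0.85) or chow control 2 (-0.93). Gins4 was lost without any of 11 of the 18 arrays, at 0.40 to 0.59.

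Of 30 other genes of G1 and the restriction point, 4 rose in TRAF3 knockouts on chow (13.3%, against 11% of all genes called): Cks1b, a CDK-binding cofactor (0.79, adjusted p = 0.00392), the transcription factor E2f3 (1.08, 0.0119), and the p53 targets Cdkn1a (1.09, 0.0287) and Ccng1 (0.62, 0.00535), all by limma. E2f3 was lost without chow TRAF3 knockout 3 (0.87) or chow control 1 (1.00). Cdkn1a, a CDK inhibitor, read 11.39, 11.19 and 11.54 in chow TRAF3 knockouts, against 9.26, 10.72 and 10.86 in chow controls. Chow control 1, the only female chow control, was far below the others, and without it the difference was 0.58 with an adjusted p of 0.0701. The call was also lost without chow TRAF3 knockout 1 (1.08) or chow TRAF3 knockout 3 (1.00).

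On HFD 3 of these 30 rose in TRAF3 knockouts, and none of the other 85 genes was called, so that 2.61% of the 115 genes were called, against 2.52% of all genes. Cdkn1a read 11.04, 10.86 and 11.26 in HFD TRAF3 knockouts, 10.20, 9.87 and 9.89 in HFD TRAF2 knockouts and 9.18, 9.04 and 8.70 in HFD controls. The groups did not overlap, and TRAF3 knockouts differed from controls by 2.08 (4.22-fold; limma adjusted p = 0.00178), a call kept without any single array. Control values split by sex on chow, and the HFD controls were all female. The female HFD TRAF3 knockouts read 10.86 and 11.26, and with a sex score in the fit the call was kept. Cdkn1a and Cdkn1b, inhibitors of the same family, thus moved in opposite directions in HFD TRAF3 knockouts. Wee1, the kinase that restrains Cdk1 (1.99, 0.0144), and E2f4, a repressive E2F (0.77, 0.00985), were the others, and Wee1 was lost without HFD control 3 (1.94, 0.0574). The list holds Wee1 although it acts on the mitotic kinase Cdk1, so its calls are not all of G1 genes. Averaged over diets and both knockouts, Cdkn1a (1.30, 0.000774), Cks1b (0.44, 0.0137) and Racgap1, a partner of the central spindle (0.76, 0.00737), rose. Racgap1 was not higher in every knockout group. On chow it averaged 7.13 in TRAF3 knockouts and 8.23 in TRAF2 knockouts, against 7.14 in controls. On HFD these means were 7.87 and 8.05, against 6.97. No gene of the 3 lists was called in TRAF2 knockouts against controls on either diet.

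**Figure D5:**
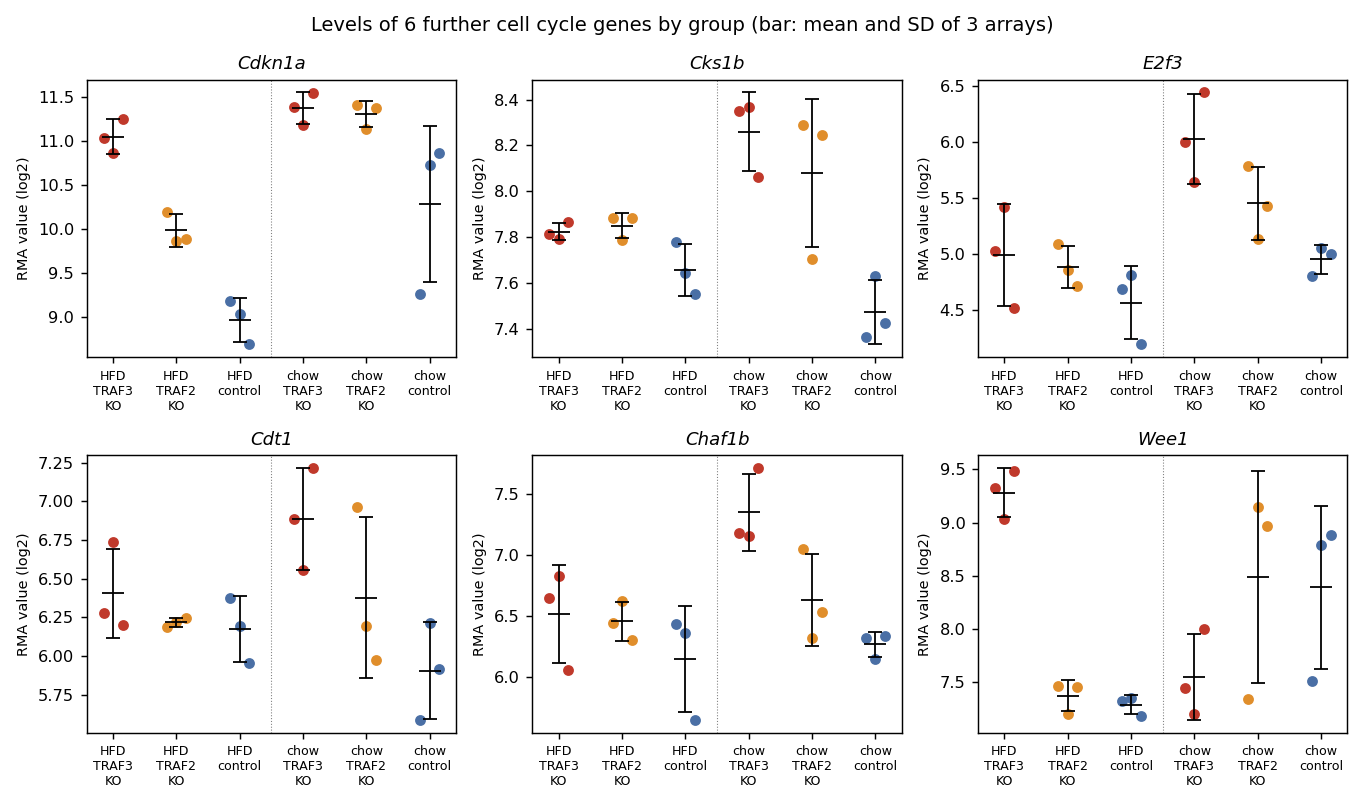
Each point is the RMA value (log2) of 1 array, with the mean and SD of the 3 arrays of each group, for 6 further genes on axes of their own. Cdkn1a is lowest in HFD controls and in chow control 1, which are the female controls. E2f3, Cdt1 and Chaf1b are highest in chow TRAF3 knockouts. Wee1 is high on all 3 HFD TRAF3 knockouts and on the 2 male arrays of both the chow TRAF2 knockouts and the chow controls. The male HFD TRAF2 knockout lies close to the females of its group.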

How the data were processed

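Total RNA of 18 islet samples (250 ng each) was labelled with biotin and hybridised to single-colour Affymetrix whole-transcript arrays. The authors deposited 1 log2 value per probe set and array, made with RMA, which corrects background, normalizes by quantiles and summarises the probes of a set. RMA and limma, with no version, stand in the submitters' processing notes. Array medians were 4.80 to 4.96 and maxima 13.5 to 13.6. Whether the arrays were normalized in 1 run is not given in the sources used here, and for arrays the number of samples limits the precision.

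Of 41345 probe sets, 23521 had exactly 1 symbol in the platform annotation, 1814 had several and 16010 were without one there. Where a gene had more than 1 probe set (1082 genes), the brightest on average was kept, which gave 22180 genes. Values were used as deposited, with no filter. The Traf3 transcript is not reported here.

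Tests used limma 3.58.1 in R 4.3.3: 1 fit of 6 group means (12 residual and 3.69 prior degrees of freedom), 14 two-sided contrasts, and Benjamini-Hochberg adjustment over all genes within each. The steps were tested on simulated data. A score is the mean deviation of a list's genes from their means over all arrays, and a summed level adds the linear values of a list. The 40 genes, their roles, the marker lists and the pathway lists were chosen with earlier results of these data known. Named genes were each member passing a test, Mki67, Top2a, the D-type cyclins, Cdk4, Cdkn1b, Cdkn2a and Ezh2. So were the 3 members of smallest p where none passed, and passing pathway genes of some contrasts. Passing pathway genes were not all named for HFD against chow within a genotype or for TRAF3 against TRAF2 knockouts. For HFD against chow 10 of 115 passed in TRAF3 knockouts, 2 in TRAF2 knockouts and 1 in controls (8.7%, 1.74% and 0.87%). The shares of all genes were 8.67%, 1.96% and 0.884%. Between TRAF3 and TRAF2 knockouts 2 passed on chow and 1 on HFD (1.74% and 0.87%, against 2.01% and 1.05% of all genes). Mcm5, Cdk2 and the Mcm3 values between diets in controls were chosen from their values.

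The alternatives each altered a single setting: scaling, variance model, a filter on dim genes, every probe set, only the arrays compared, the replicate number as a block, sex, ductal, acinar or lymphocyte scores as covariates, and arrays left out.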

Additional observations from a re-analysis of the deposited data

Results flagged for a closer look

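No cell cycle member differed in its TRAF3 knockout effect between diets beyond the threshold, and 4 of 115 genes of the wider pathway did (3.48%, against 5.8% of all genes), by the TRAF3 knockout by diet interaction in limma. The effect of the knockout on HFD minus that on chow was 2.83 on the log2 scale for Wee1 (adjusted p = 0.0130), with 9.32, 9.03 and 9.49 in HFD TRAF3 knockouts against 7.32, 7.36 and 7.19 in HFD controls. On chow Wee1 read 7.45, 7.21 and 8.00 in TRAF3 knockouts against 7.51, 8.79 and 8.88 in controls, so chow control 1 lay with the knockouts. Chow control 1 was the only female chow control, and the HFD controls held no male. Chow TRAF2 knockouts split likewise, with the female at 7.35 and the males at 9.15 and 8.97. HFD TRAF2 knockouts did not split in this way, with the male at 7.47 and the females at 7.21 and 7.45. In TRAF3 knockouts the sexes overlapped on both diets. With a sex score in the fit the Wee1 interaction still passed. The interaction was 0.93 for E2f4 (adjusted p = 0.0188), -0.91 for Pttg1 (0.0147) and -0.98 for Gins4 (0.0168). Pttg1 read 6.08, 6.00 and 6.06 in HFD TRAF3 knockouts against 6.16, 6.11 and 6.18 in HFD controls, and 6.41, 6.50 and 6.92 in chow TRAF3 knockouts against 5.82, 5.83 and 5.77 in chow controls. These interactions passed without any single array, except that Gins4 gave -0.88 (adjusted p = 0.0537) without chow TRAF3 knockout 3. The causes were not tested.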

How the results depend on the processing

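Values here are numbers of members called out of 38. In TRAF3 knockouts on chow, where 7 were called, the ductal covariate left 1 and leaving out 1 array gave 1 to 10, with 3 without chow TRAF3 knockout 1, 1 without chow TRAF3 knockout 3 and 3 without chow control 1. The replicate numbers were not treated as pairs. Of 45 same-number pairs of arrays, 16 correlated above 0.1 in their deviations, and 8 of 18 arrays were closest to an array of the same number. The median correlation was 0.029 for the same number and -0.032 for different numbers. Replicate 1 was the female of each chow group, so these values cannot decide whether samples were paired. With the replicate number as a block the count was 6 there and 1 for TRAF3 against TRAF2 knockouts on chow, where 0 were called without it.

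For TRAF3 knockouts on HFD (1 called), every probe set, only the arrays compared, and the omission of both lymphocyte-rich arrays gave 0. For both knockouts averaged (2 called), centred arrays, every probe set and the lymphocyte covariate gave 1 and the ductal covariate 0. For HFD against chow in TRAF3 knockouts (1 called), the dim filter gave 2, only the arrays compared 0, the acinar covariate 3, omission of the lymphocyte-rich arrays 4, and the lymphocyte covariate 5, all lower on HFD (Mcm3, Mcm6, Mcm7, Rrm1 and Cdk4). The omission of HFD TRAF3 knockout 3, HFD control 3 and chow control 1 together also gave 5, but with 4 of them higher on HFD (Ccnb2 1.05, Kif11 1.21, E2f1 0.83 and Cdkn2c 0.55) and only Cdk4 lower (-0.47).

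The other comparisons had 0 called. For HFD against chow in the mean of genotypes, a second quantile normalization, the dim filter and the acinar covariate gave 2, the trended robust variance 1 and the 3 omitted arrays 4. For the TRAF3 knockout by diet interaction, the second quantile normalization, the acinar and the lymphocyte covariate gave 1 and omission of the lymphocyte-rich arrays 3. For TRAF3 against TRAF2 knockouts on chow, the acinar covariate gave 1, omission of the lymphocyte-rich arrays 5, and the lymphocyte covariate and the 3 omitted arrays 3. On HFD the acinar covariate gave 1, and over both diets omission of the lymphocyte-rich arrays and the lymphocyte covariate gave 1. For HFD against chow in TRAF2 knockouts, the acinar covariate and the 3 omitted arrays gave 1.

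Leaving out 1 array gave 0 to 1 for TRAF3 knockouts on HFD, the TRAF3 interaction and TRAF3 against TRAF2 over both diets, 0 to 3 for both knockouts and for diet in the mean of genotypes, 0 to 4 for diet in TRAF3 knockouts, 0 to 5 for TRAF3 against TRAF2 on chow, and 0 elsewhere. The lymphocyte covariate and the 3 omitted arrays were chosen after seeing the data, and the causes of these shifts were not tested. The dim filter kept 23 members of the 38, and using only the arrays compared does not apply to averages over all arrays. Low signal limits Birc5 and Bub1 most, and also Mcm3 in chow controls and Kif11 and Top2a in chow TRAF3 knockouts.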

Other observations

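Averaged over the 3 genotypes, HFD and chow differed in no member of the cell cycle list and in 8 of 115 genes of the wider pathway by limma (6.96%, against 9.72% of all genes). The HFD groups held more females than the chow groups, so diet and sex were partly confounded. Of the G1 and restriction point genes, the E2F genes E2f3 (-0.67) and E2f4 (-0.43), their dimer partner Tfdp1 (-0.29), the ubiquitin ligase component Skp2 (-0.31), which targets Cdkn1b protein, and the p53 targets Cdkn1a (-0.98) and Mdm2 (-0.42) fell, and Tfdp2 (0.41) rose. E2f4 was not lower on HFD in every genotype: it averaged 8.80 in HFD TRAF3 knockouts against 8.65 in chow TRAF3 knockouts, and its TRAF3 knockout by diet interaction was 0.93 (adjusted p = 0.0188). Cdkn1a overlapped between diets in TRAF3 knockouts, at 11.04, 10.86 and 11.26 on HFD against 11.39, 11.19 and 11.54 on chow. In controls the only chow female read 9.26 and the chow males 10.72 and 10.86, against 9.18, 9.04 and 8.70 on HFD. Of the replication genes Gins3 fell (-0.47). Skp2 read 5.38, 5.59 and 5.71 in HFD TRAF3 knockouts, 5.73, 5.73 and 5.60 in HFD TRAF2 knockouts and 5.83, 5.74 and 5.72 in HFD controls, against 6.07, 6.02 and 6.19, 5.95, 5.84 and 5.89, and 5.99, 5.98 and 5.87 in the same genotypes on chow. Every HFD array thus lay below every chow array. All 8 calls were kept without any single array and with a sex score in the fit.

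Racgap1 was lower in chow TRAF3 knockouts than in chow TRAF2 knockouts (-1.10), at 7.22, 7.43 and 6.75 against 8.06, 8.05 and 8.59, a call lost without chow TRAF2 knockout 2 (-1.19), chow TRAF2 knockout 3 (-0.92), chow TRAF3 knockout 1 (-1.14) or chow TRAF3 knockout 3 (-0.91). Chow controls read 7.21, 7.10 and 7.11, within the range of the TRAF3 knockouts.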
